A study of Homo sapiens with 6 samples.

Results

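HLA and antigen presentation genes were examined in BT474 cells that stably carried 1 of 2 splice variants of the long noncoding RNA NR2F1-AS1. The members were 31 genes, 7 of the class I pathway, 11 of peptide loading and 13 of the class II pathway, chosen by name. Every probe whose gene name in the scanner files equalled a member was taken, which gave 55 of the 58201 probes on the array. A probe entered the test if, in 1 group or more, the scanner software called it well above background on each of the 2 arrays, and 42 of the 55 probes, of 27 of the 31 genes, met this.

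The cells were BT474, a breast cancer cell line positive for estrogen receptor and HER2, and RNA was measured on 6 one-color Agilent arrays, 2 per group. Control cells were MOCK cells with empty pcDNA3.1, BT474-Var1 cells carried pcDNA3.1-NR2F1-AS1 variant1 and BT474-Var4 cells carried pcDNA3.1-NR2F1-AS1 variant4. All had been nucleofected, selected with antibiotic and grown on, and both variant populations were regrown from the few cells that outlived a long decline, so that carrying a variant and having outlived selection cannot be told apart. Per the methods, variant 1 was in a vector with hygromycin resistance and variant 4 in a vector that also encodes eGFP, 2 empty plasmids served as controls, and which of them the arrayed Control cells carried is not stated in the sources used here. Nothing says that the 2 arrays of a group came from separate cultures, so p-values measure only the spread between these arrays, which may be technical.

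Class I molecules are a heavy chain paired with B2M and show peptides of the cell's own proteins to CD8+ T cells. These peptides are cut by the proteasome, carried into the endoplasmic reticulum by the TAP transporter, trimmed by ERAP aminopeptidases and fitted onto the heavy chain with the help of tapasin. Class II molecules are alpha and beta chain pairs of the DR, DQ and DP types, assembled with the invariant chain and loaded in endosomes under the control of HLA-DM; they are a feature of professional antigen-presenting cells, and epithelial cells can make them when interferon gamma induces the coactivator CIITA.

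All 6 arrays lay on 1 slide. The first of the position numbers in the barcode was 1 for the Control and BT474-Var4 arrays and 2 for both BT474-Var1 arrays, so that this position and BT474-Var1 cannot be told apart. Between 47.6% and 57.5% of the probes of an array were well above background. The values below are log2 signals relative to the 75th percentile of their own array, and levels of different probes are not compared, since probes differ in how well they bind. Of the 4 probes of NR2F1-AS1, A_19_P00320140 read -0.42 and -0.51 on the BT474-Var1 arrays and -5.73 or lower on the other arrays, and A_24_P51080 read 1.67 and 1.50 on the BT474-Var4 arrays and -4.25 or lower on the others, as the labels have it. All 20 probes of 12 luminal epithelial markers were tested, and 5 were higher and 4 lower in BT474-Var1 cells, 3 higher and 4 lower in BT474-Var4 cells, and 14 differed between the variants. Of all tested probes, 34.4%, 24.2% and 41.2% differed in these comparisons at an adjusted p under 0.05 in limma. Over the 20 luminal probes the differences from Control ran from -0.66 to 0.88 in BT474-Var1 and from -0.85 to 0.63 in BT474-Var4 cells. In BT474-Var1 cells KRT19 differed from Control by 0.62, EPCAM by -0.66 and CDH1 by -0.47, and the part of such shifts in the results below was not tested. Of 26 probes of 17 leukocyte markers, 14 were tested, and MS4A1, CD79B and CSF1R were well above background on 0 of 6 arrays, while 2 of the 5 PTPRC probes were so on 0 arrays and 2 on all 6. Among tested leukocyte probes, 1 was higher and 3 lower in BT474-Var1 cells (CD79A by -0.50) and 0 changed in BT474-Var4 cells at an adjusted p under 0.05 in limma. The higher one, AIF1 probe A_23_P214627, was well above background on the BT474-Var1 arrays alone. It entered the test only through the group where it is high, so its call (adjusted p = 0.0349, limma) is no support for a rise. With the dim Control values raised to the lowest signal well above background, it was 2.63-fold higher in BT474-Var1 cells. The other AIF1 probe, A_33_P3213288, was well above background on all 6 arrays and gave 0.18 ± 0.21 (adjusted p = 0.565).

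Across the 42 tested probes, BT474-Var1 cells differed from Control at 18, with 11 higher and 7 lower, by limma at an adjusted p under 0.05. Of all 31857 tested probes, 14.1% were higher and 20.3% lower in the same comparison. BT474-Var4 cells differed from Control at 9 member probes, 4 higher and 5 lower, beside 9.87% higher and 14.3% lower among all probes. BT474-Var4 differed from BT474-Var1 cells at 15, with 5 higher in BT474-Var4 and 10 lower, beside 20.4% and 20.7%. Changes of 2-fold or more that passed numbered 4, 1 and 6 member probes in these 3 comparisons, beside 3.94%, 3.17% and 6.87% of all probes in either direction. Counted by gene, through the tested probe with the highest mean, 12, 7 and 9 of the 27 genes passed.

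The class I, peptide loading and class II members differed in how they were spread over these counts. Of 12 class I probes, 2 passed between BT474-Var1 cells and Control and 1 between BT474-Var4 cells and Control, all by less than 2-fold, and the median differences were -0.03 and 0.09 log2 units. Of 13 peptide loading probes, 5 and 4 passed, with medians of 0.01 and 0.09. Of 17 class II probes, 11 and 4 passed, with medians of 0.29 and -0.21, and the median between BT474-Var4 and BT474-Var1 was -0.75. The medians over all tested probes were -0.04 for BT474-Var1, -0.08 for BT474-Var4 and -0.03 between the variants. Of the 17 class II probes, 5 were those of HLA-DQB1, and with 1 probe per gene the class II medians were -0.02, -0.03 and -0.02.

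**Figure D1:**
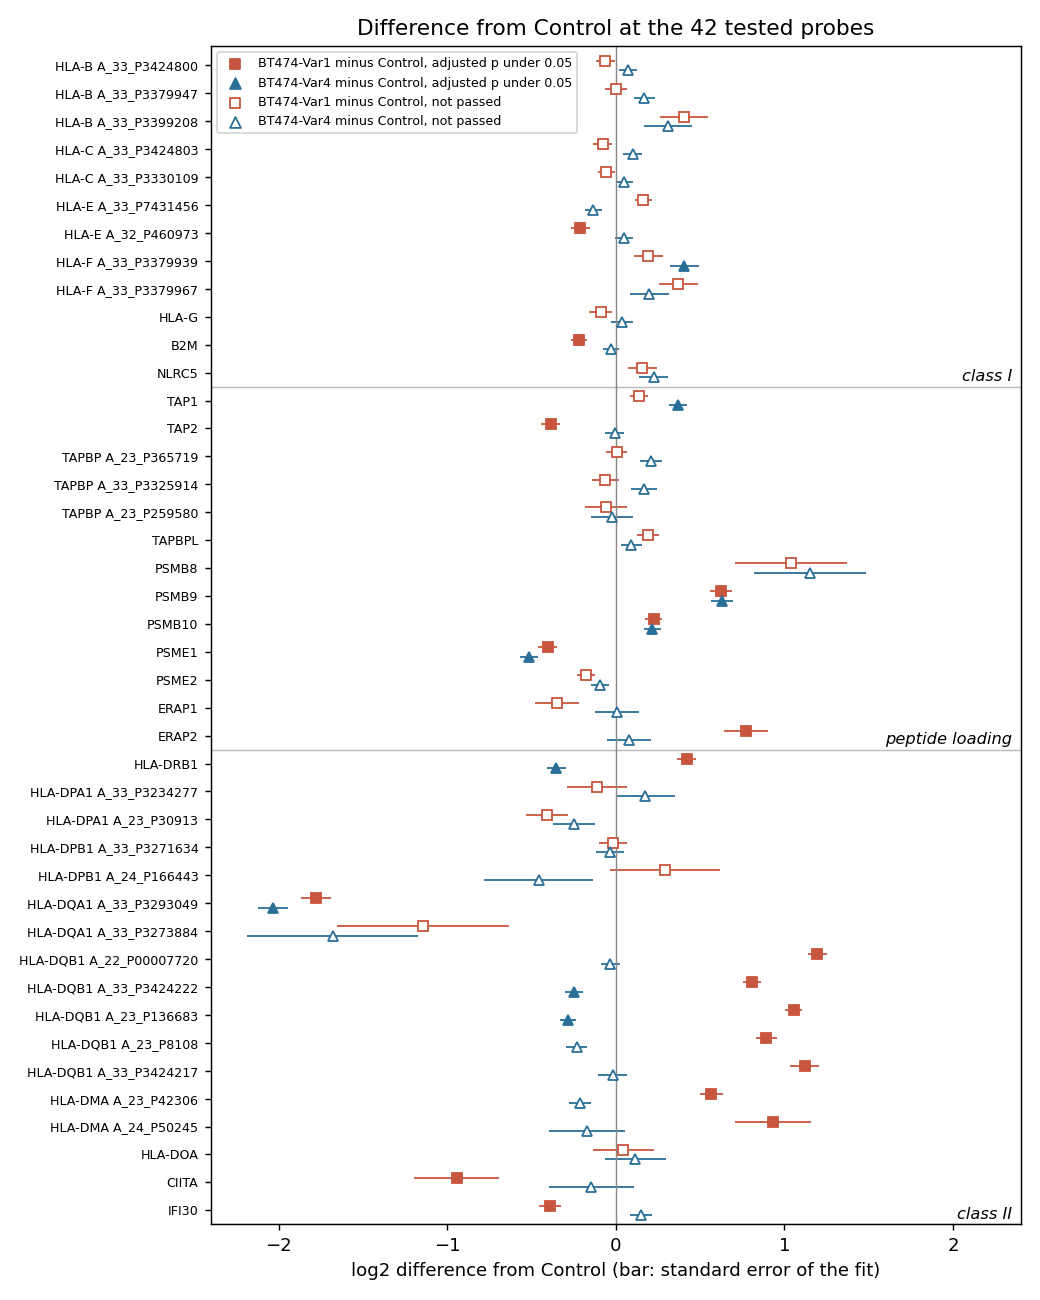
Log2 difference from Control for each of the 42 tested probes, BT474-Var1 as squares and BT474-Var4 as triangles, with the standard error of the fit as a bar and filled symbols where the adjusted p was under 0.05. The class I symbols lie close to 0, the HLA-DQA1 symbols lie left of 0 for both variants, and the 5 HLA-DQB1 squares lie right of 0 while their triangles lie at or left of it.

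Probes of the HLA genes are short pieces of very similar sequences. The 2 lines that follow compare the 60-base probes of HLA-DRB1 (A_24_P343233) and HLA-DQB1 (A_33_P3424222), as the scanner files give them, with the bases that differ in capitals. They lie in the coding sequence of the 2 beta chains and are shown because both genes carry results below and their probes match at all but 15 of 60 positions.
HLA-DRB1: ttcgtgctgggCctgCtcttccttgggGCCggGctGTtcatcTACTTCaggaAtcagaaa
HLA-DQB1: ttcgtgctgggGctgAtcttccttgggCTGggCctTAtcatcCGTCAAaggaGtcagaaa

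For the classical class I genes, 30-base windows of 3 probes were nearly the same. The first HLA-B probe (A_33_P3424800) and HLA-C probe A_33_P3424803 were identical over this window and shared 41 consecutive bases, and the other HLA-B probe (A_33_P3379947) differed at 1 base, in capitals. The file headers place this HLA-C probe on hg19 at chr6:31321644-31321703, among the HLA-B probes, and the other HLA-C probe at chr6:31236617-31236676. Their signals cannot be assigned to 1 gene.
HLA-B A_33_P3424800: taagtcaattcctggaaGttgagagagcaa
HLA-B A_33_P3379947: taagtcaattcctggaaTttgagagagcaa
HLA-C A_33_P3424803: taagtcaattcctggaaGttgagagagcaa

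The classical heavy chains HLA-B and HLA-C, which carry most of the peptides shown to CD8+ T cells, differed little between the groups by their bright probes. HLA-B probe A_33_P3424800 read 6.27 and 6.21 in Control, 6.21 and 6.16 in BT474-Var1 and 6.33 and 6.30 in BT474-Var4 cells. HLA-C probe A_33_P3330109 read 7.32 and 7.30, 7.27 and 7.23, and 7.37 and 7.35 in the same order. In both probes the BT474-Var4 arrays were the highest, by little more than the gap between arrays of a group, and neither passed in any comparison. The differences were -0.06 ± 0.05 and 0.07 ± 0.05 (SE, n = 2 per group) for HLA-B and -0.06 ± 0.05 and 0.05 ± 0.05 for HLA-C, with adjusted p-values of 0.379 to 0.487 in limma. The remaining probes of HLA-B and HLA-C did not pass either, and the dimmest, HLA-B A_33_P3399208, gave 0.41 ± 0.14 and 0.31 ± 0.14.

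B2M, the light chain of every class I molecule, was lower in BT474-Var1 cells. It read 5.14 and 5.12 in Control, 4.91 and 4.92 in BT474-Var1 and 5.11 and 5.10 in BT474-Var4 cells. The BT474-Var1 arrays lay below all others, and the Control and BT474-Var4 arrays lay close together. The difference from Control was -0.22 ± 0.05 in BT474-Var1 cells (adjusted p = 0.0291, limma) and -0.03 ± 0.05 in BT474-Var4 cells (adjusted p = 0.699), and BT474-Var4 exceeded BT474-Var1 by 0.19 ± 0.05 (adjusted p = 0.0359). Both B2M calls were lost in each of the 6 fits that left out 1 array, with adjusted p-values up to 0.128 and 0.122. Both were also lost when only the groups compared were fitted and under quantile normalization, which gave -0.07 and 0.10.

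The nonclassical molecules gave small differences, and for HLA-E, a ligand of NK cell receptors, its 2 probes went opposite ways. Probe A_32_P460973 read 5.46 and 5.38 in Control, 5.22 and 5.20 in BT474-Var1 and 5.46 and 5.47 in BT474-Var4 cells. Probe A_33_P7431456 read 9.76 and 9.79, 9.93 and 9.95, and 9.67 and 9.62. BT474-Var1 arrays were thus the lowest by the first probe and the highest by the second. Between BT474-Var4 and BT474-Var1 the first gave 0.26 ± 0.05 (adjusted p = 0.0223) and the second -0.30 ± 0.05 (adjusted p = 0.013), so no direction is given for HLA-E. Against Control only the first passed, in BT474-Var1 cells at -0.21 ± 0.05 (adjusted p = 0.0433), and this call was lost whichever array was left out, with an adjusted p up to 0.175, and when only the groups compared were fitted. Quantile normalization ended all 3 HLA-E calls and gave -0.06 for that one. The call between the variants was lost without either BT474-Var1 array or BT474-Var4 B by both probes (adjusted p up to 0.0865 and 0.0583), and by A_32_P460973 also without BT474-Var4 A. The second probe shared at least 20 consecutive bases with probes of 6 other genes, up to 48 with 1 of PTK6.

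HLA-F, another nonclassical class I molecule, was higher in BT474-Var4 cells by its brighter probe, A_33_P3379939. It read 1.65 and 1.70 in Control, 1.76 and 1.97 in BT474-Var1 and 2.08 on both BT474-Var4 arrays. The groups did not overlap. The difference was 0.41 ± 0.09 in BT474-Var4 (adjusted p = 0.035) and 0.19 ± 0.09 in BT474-Var1 cells (adjusted p = 0.151), and the BT474-Var4 call was lost without Control A, Control B, BT474-Var4 A or BT474-Var4 B, with an adjusted p up to 0.144, and by the methods' analysis of variance. The dimmer HLA-F probe and HLA-G, read at 6.21 to 6.41 on all 6 arrays, passed in no comparison. Whether the HLA-F and HLA-G probes also bind the RNA of other class I genes was not tested, so their signals may not belong to 1 gene each. NLRC5, the coactivator of class I promoters, read -1.21 and -1.28 in Control, -0.98 and -1.19 in BT474-Var1 and -1.02 and -1.01 in BT474-Var4 cells, and its differences of 0.16 ± 0.09 and 0.23 ± 0.09 did not pass. A further NLRC5 probe was well above background on 1 array and was not tested.

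**Figure D2:**
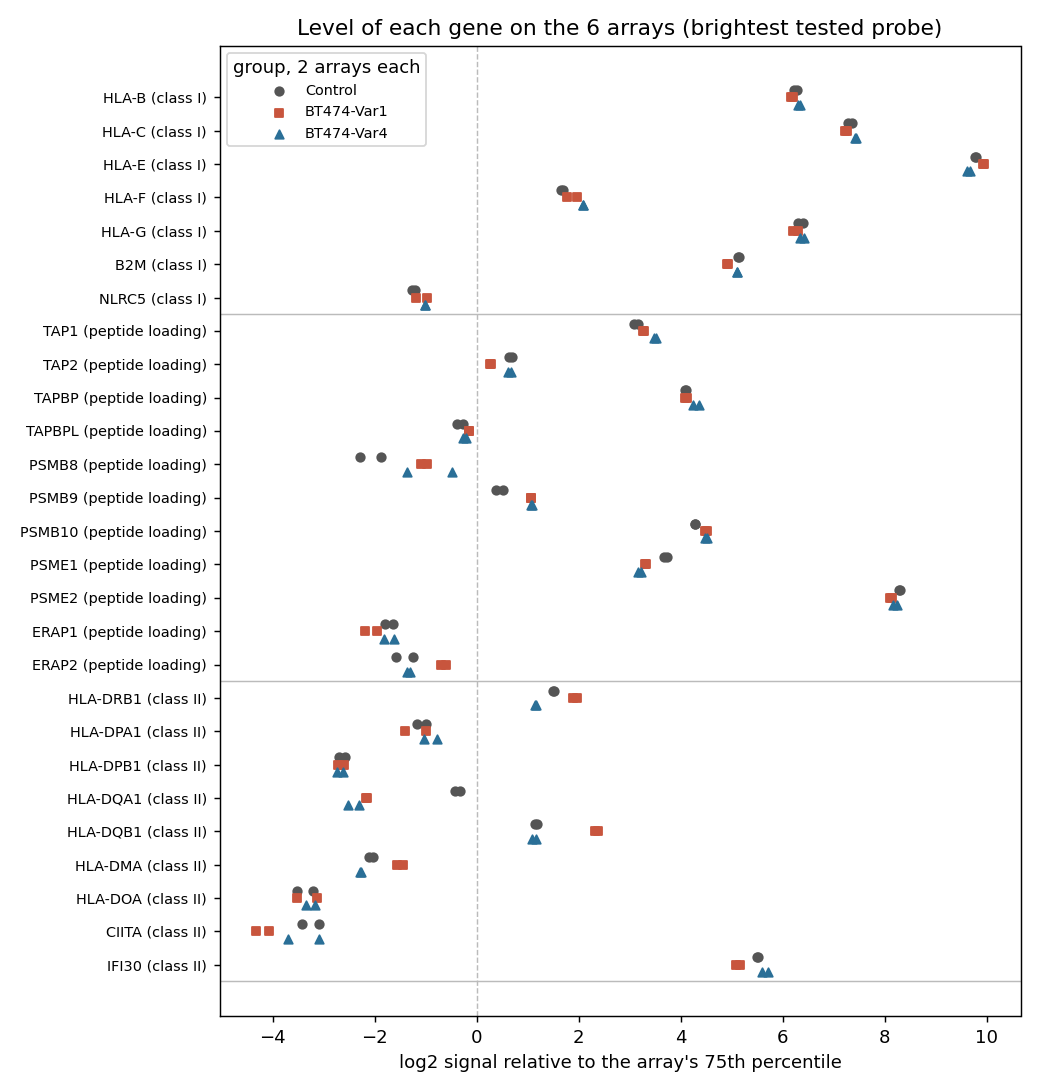
Log2 signal relative to the array's 75th percentile on each of the 6 arrays, for the tested probe with the highest mean of each of the 27 genes, with Control as circles, BT474-Var1 as squares and BT474-Var4 as triangles. Groups overlap or nearly touch for most class I genes, both variants lie apart from Control for HLA-DQA1 (below it) and PSMB9 (above it), BT474-Var1 alone lies apart for HLA-DQB1, and all 3 groups lie apart for HLA-DRB1; positions of different genes are not comparable.

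Among the peptide loading members, the inducible proteasome subunit PSMB9 rose in both populations by nearly the same amount. PSMB9 replaces a constitutive catalytic subunit when the immunoproteasome forms. It read 0.37 and 0.51 in Control, 1.07 and 1.06 in BT474-Var1 and 1.06 and 1.07 in BT474-Var4 cells. All 4 variant arrays lay above both Control arrays and nearly coincided. The rise was 1.54-fold in BT474-Var1 (0.62 ± 0.07, adjusted p = 0.0061) and 1.55-fold in BT474-Var4 cells (0.63 ± 0.07, adjusted p = 0.00865), both calls held in every fit without 1 array, and the variants differed by 0.00 ± 0.07.

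PSMB10, the second inducible subunit, was higher by 1.17-fold and 1.16-fold. It read 4.28 and 4.27 in Control, 4.48 and 4.52 in BT474-Var1 and 4.51 and 4.48 in BT474-Var4 cells, again with no overlap between Control and variant arrays. The differences were 0.23 ± 0.05 (adjusted p = 0.0289) and 0.22 ± 0.05 (adjusted p = 0.0413), and both were lost whichever array was left out, with adjusted p-values up to 0.118 and 0.156, and when only the groups compared were fitted. Quantile normalization gave 0.35 for BT474-Var1 cells. PSMB8, the third inducible subunit, read -1.88 and -2.28 in Control, -1.10 and -0.98 in BT474-Var1 and -0.48 and -1.38 in BT474-Var4 cells. All variant arrays were higher than Control, but the BT474-Var4 arrays were far apart, and the differences of 1.04 ± 0.33 and 1.15 ± 0.33 did not pass (adjusted p = 0.0734 and 0.0697).

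The proteasome activator PA28 did not move with the inducible subunits. PSME1, its alpha subunit, read 3.74 and 3.67 in Control, 3.29 and 3.31 in BT474-Var1 and 3.16 and 3.22 in BT474-Var4 cells. It was lower on all 4 variant arrays, by -0.40 ± 0.05 (adjusted p = 0.00937) and -0.52 ± 0.05 (adjusted p = 0.00865). The BT474-Var1 call was lost without Control A (adjusted p = 0.0574) and the BT474-Var4 call without Control A or Control B (adjusted p up to 0.058). PSME2, the beta subunit, read 8.30 and 8.28, 8.10 and 8.13, and 8.16 and 8.23, and its differences of -0.18 ± 0.05 and -0.09 ± 0.05 did not pass. Of 21 tested probes of 17 genes of the constitutive proteasome and its other activators, 0 were higher and 11 lower in BT474-Var1 cells, led by PSMA4 at -1.07 ± 0.06, and 1 was higher and 2 lower in BT474-Var4 cells. Of all tested probes, 14.1% were higher and 20.3% lower in BT474-Var1 cells, and 9.87% higher and 14.3% lower in BT474-Var4 cells. The BT474-Var4 counts are therefore not read as a result about these genes. Of the constitutive catalytic subunits, PSMB5, which PSMB8 replaces, was lower in both, by -0.53 ± 0.06 and -0.40 ± 0.06 (adjusted p = 0.00677 and 0.0171). PSMB6, which PSMB9 replaces, was lower in BT474-Var1 cells alone among the comparisons with Control, by -0.27 ± 0.05 (adjusted p = 0.0224), against 0.06 ± 0.05 in BT474-Var4 cells (adjusted p = 0.436). PSMB7, which PSMB10 replaces, gave -0.22 ± 0.06 (adjusted p = 0.0426) and 0.17 ± 0.06 (adjusted p = 0.0965).

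The 2 chains of the TAP transporter changed in different populations. TAP1 read 3.17 and 3.09 in Control, 3.26 and 3.27 in BT474-Var1 and 3.51 and 3.48 in BT474-Var4 cells. TAP2 read 0.62 and 0.68, 0.28 and 0.25, and 0.67 and 0.62. TAP1 was highest on the BT474-Var4 arrays, and TAP2 was lowest on the BT474-Var1 arrays while Control and BT474-Var4 overlapped. TAP1 was higher in BT474-Var4 cells by 0.37 ± 0.05 (adjusted p = 0.0163) and at 0.14 ± 0.05 in BT474-Var1 cells (adjusted p = 0.12). TAP2 was lower on the BT474-Var1 side, at -0.39 ± 0.05 (adjusted p = 0.0103) and at -0.01 ± 0.05 in BT474-Var4 cells (adjusted p = 0.942). BT474-Var4 exceeded BT474-Var1 by 0.23 ± 0.05 for TAP1 (adjusted p = 0.0309) and by 0.38 ± 0.05 for TAP2 (adjusted p = 0.0087), of which the latter held without any 1 array. The TAP1 call against Control was lost without Control A, Control B, BT474-Var4 A or BT474-Var4 B (adjusted p up to 0.0855), its call between the variants whichever array was left out (up to 0.108) and under quantile normalization, which gave 0.13, and the TAP2 call against Control without Control A, Control B or BT474-Var1 B (up to 0.0598). A further TAP2 probe was well above background on 0 of 6 arrays.

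ERAP2, which trims peptides in the endoplasmic reticulum, rose in BT474-Var1 cells. It read -1.59 and -1.24 in Control, -0.70 and -0.60 in BT474-Var1 and -1.32 and -1.36 in BT474-Var4 cells. Both BT474-Var1 arrays lay above all others, and the BT474-Var4 arrays lay between the 2 Control arrays. The rise was 1.7-fold (0.77 ± 0.13, adjusted p = 0.0153), against 0.08 ± 0.13 in BT474-Var4 cells, and BT474-Var4 was lower than BT474-Var1 by -0.69 ± 0.13 (adjusted p = 0.0168). Removing BT474-Var1 A or BT474-Var1 B ended the first call (adjusted p up to 0.0704) and removing any variant array the second (up to 0.0741). Both were also lost by the methods' analysis of variance, and normexp background correction gave 0.38 and -0.37. ERAP1, read at -1.61 to -2.20, the 3 tested probes of tapasin (TAPBP) and the tapasin homolog TAPBPL passed in no comparison, with TAPBP between -0.06 and 0.21 from Control. A further probe each of ERAP1 and TAPBP was too dim to be tested.

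**Figure D3:**
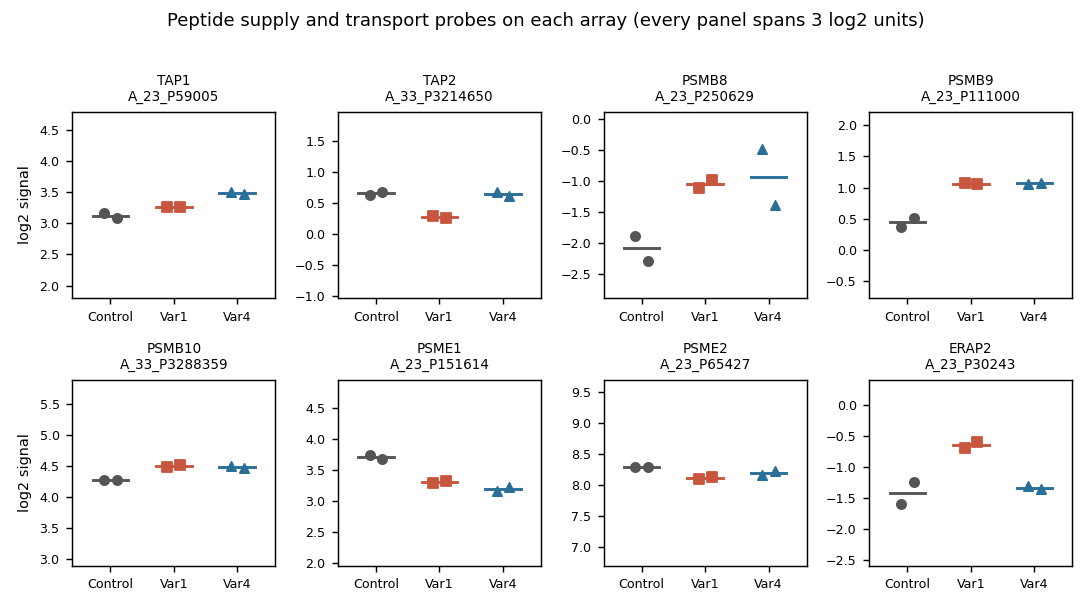
Log2 signal of 8 peptide supply and transport probes on each array, by group, with the group mean as a line; every panel spans the same range of log2 units. PSMB9 and PSMB10 lie above Control on all 4 variant arrays and PSME1 below it, TAP2 is low on the BT474-Var1 arrays and ERAP2 high on them.

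TAP1 and PSMB9 are neighbors that are transcribed away from each other. With the TAP1 start used here, their start sites are 488 bases apart on chromosome 6 in the RefSeq annotation of GRCh38.p14. The 250 bases before this TAP1 start lie between both starts, at chr6:32853705-32853954 on GRCh38.p14. They are written on the minus strand in the direction of TAP1. Capitals mark matches, on either strand, to GAAANNGAA, the core of the interferon-stimulated response element, and to ATTGG, the Y box of MHC promoters. RefSeq has another TAP1 start, whose window at chr6:32852712-32853011 held 0 matches to GAAANNGAA. The start shown was chosen because its window held more matches to GAAANNGAA, so finding them here is no result.
TAP1: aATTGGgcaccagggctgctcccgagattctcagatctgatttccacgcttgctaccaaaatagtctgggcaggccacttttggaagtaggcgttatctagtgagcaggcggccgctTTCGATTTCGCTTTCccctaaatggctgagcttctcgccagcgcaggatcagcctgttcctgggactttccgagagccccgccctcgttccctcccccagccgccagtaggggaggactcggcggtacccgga

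RefSeq windows of 300 bases around the start, 250 before and 50 after it, were at hand for 26 of the 31 genes, 34 windows in all. GAAANNGAA was in 15 of the 34 windows and in 8.11% of 35116 windows of all genes. The interferon gamma activated site TTCNNNGAA was in 3 of the 34 and in 7.66% of all, and the Y box in 17 of the 34 and in 34.6% of all. Windows of 1 gene or of neighboring genes can overlap, matches to different motifs can overlap, and a match is a description of the letters only.

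Class II pathway genes held the largest differences among the members. HLA-DQA1, the alpha chain of HLA-DQ, fell 3.43-fold in BT474-Var1 and 4.09-fold in BT474-Var4 cells. HLA-DQB1, the beta chain of the same molecule, rose in BT474-Var1 cells by all 5 probes that carry its name, 1.75-fold to 2.29-fold. It did not rise in BT474-Var4 cells. The headers place A_23_P8108 of these probes apart from the others and give no place for A_33_P3424217, so they may not all read HLA-DQB1 alone. In bulk RNA, fewer cells with a transcript and less of it per cell cannot be told apart.

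The HLA-DQA1 probe with the clear signal (A_33_P3293049) holds the end of the coding sequence up to the stop codon, in capitals here, and lies at chr6:32610501-32610560 on hg19.
HLA-DQA1: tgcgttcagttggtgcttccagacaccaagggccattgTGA

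This probe read -0.43 and -0.34 in Control, -2.17 and -2.16 in BT474-Var1 and -2.32 and -2.52 in BT474-Var4 cells. All 4 variant arrays lay far under both Control arrays, and the variants lay close together. The differences were -1.78 ± 0.09 (adjusted p = 0.0029) and -2.03 ± 0.09 (adjusted p = 0.00264), with -0.25 ± 0.09 between the variants (adjusted p = 0.0821). Both calls passed under every alternative run, and normexp background correction gave the smallest sizes, -0.72 and -0.84. The other probe, A_33_P3273884, read -2.35 and -3.07 in Control, -3.96 and -3.75 in BT474-Var1 and -5.05 and -3.72 in BT474-Var4 cells. It was well above background on 3 arrays, on both of Control and 1 of BT474-Var1. It entered the test only through Control, the group where it is high, so its lower values in the variants are no support for a fall. The fitted differences were -1.14 ± 0.51 and -1.68 ± 0.51 and did not pass (adjusted p = 0.0784 for BT474-Var4 in limma). For BT474-Var4 cells the bound was 2.29-fold, but over the alternatives the difference was as small as -0.23. HLA-DQA2, a near copy of HLA-DQA1, gave -1.12 ± 0.06 and -1.72 ± 0.06 by its brighter probe A_24_P852756, with 1.18 on both arrays of Control, 0.11 and 0.00 in BT474-Var1 and -0.50 and -0.58 in BT474-Var4 cells. Whether the HLA-DQA1 and HLA-DQA2 probes also bind the other gene's RNA was not tested.

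HLA-DQB1 had 5 tested probes, and all were highest on the BT474-Var1 arrays. The brightest, A_22_P00007720, read 1.14 and 1.17 in Control, 2.38 and 2.32 in BT474-Var1 and 1.16 and 1.09 in BT474-Var4 cells. Probe A_23_P136683 read -0.42 and -0.39, 0.66 and 0.65, and -0.71 and -0.66. Probe A_33_P3424222, printed above beside HLA-DRB1, read 0.36 and 0.38, 1.18 and 1.18, and 0.09 and 0.16. In each the BT474-Var1 arrays stood above all others and the arrays of a group lay close together. The rises in BT474-Var1 cells were 1.20 ± 0.06, 1.06 ± 0.05 and 0.81 ± 0.05, with adjusted p-values of 0.00285, 0.00279 and 0.00346 in limma.

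Probe A_23_P8108 read -0.69 and -0.71 in Control, 0.17 and 0.21 in BT474-Var1 and -1.00 and -0.87 in BT474-Var4 cells. Probe A_33_P3424217 read -1.65 and -1.64, -0.55 and -0.51, and -1.56 and -1.77. Again the BT474-Var1 arrays were the highest, and these probes rose by 0.89 ± 0.06 and 1.12 ± 0.08 in BT474-Var1 cells (adjusted p = 0.00379 and 0.00396). All 5 calls passed under every alternative run, and their sizes ranged over the alternatives from 0.49 to 1.27, where 0.49 was A_33_P3424217 with normexp background correction. In BT474-Var4 cells the 5 differences from Control ran from -0.02 to -0.28, and 2 of them passed, A_33_P3424222 at -0.25 ± 0.05 (adjusted p = 0.036) and A_23_P136683 at -0.28 ± 0.05 (adjusted p = 0.0242). Those 2 calls were lost whichever array was left out, with adjusted p-values up to 0.146 and 0.116, and when only the groups compared were fitted, and the first was -0.16 with normexp background correction. Between the variants all 5 were lower in BT474-Var4 cells, by -1.06 to -1.34 log2 units or 2.08-fold to 2.53-fold, with adjusted p-values of 0.0012 to 0.00225, and normexp background correction gave the smallest of these sizes, -0.51 for A_33_P3424217. The headers place A_23_P8108 at chr6:32725597-32725656 on hg19, apart from 3 probes between 32627683 and 32629184, and give no place for A_33_P3424217. HLA-DQB2, a near copy, gave 0.57 ± 0.08 and -0.14 ± 0.08, and whether the probes of HLA-DQB1 and HLA-DQB2 bind each other's RNA was not tested.

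The promoter stretches of the 2 HLA-DQ chains follow, since their RNAs moved apart in BT474-Var1 cells. Each is the 250 bases before the RefSeq start on GRCh38.p14, chr6:32637156-32637405 on the plus strand for HLA-DQA1 and chr6:32666658-32666907 on the minus strand for HLA-DQB1, with matches to GAAANNGAA, TTCNNNGAA and ATTGG on either strand in capitals. Both held 2 matches to ATTGG, HLA-DQA1 held 1 to TTCNNNGAA, and neither held GAAANNGAA.
HLA-DQA1: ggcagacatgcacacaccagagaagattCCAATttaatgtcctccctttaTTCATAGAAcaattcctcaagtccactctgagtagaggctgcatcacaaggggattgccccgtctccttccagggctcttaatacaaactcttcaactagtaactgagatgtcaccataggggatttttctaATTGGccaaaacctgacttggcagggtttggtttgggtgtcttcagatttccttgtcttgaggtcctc
HLA-DQB1: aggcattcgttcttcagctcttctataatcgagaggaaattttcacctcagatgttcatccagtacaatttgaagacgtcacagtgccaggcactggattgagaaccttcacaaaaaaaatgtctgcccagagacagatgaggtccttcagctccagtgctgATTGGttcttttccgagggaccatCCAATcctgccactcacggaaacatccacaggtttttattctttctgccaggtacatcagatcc

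HLA-DRB1, the beta chain of HLA-DR, rose in BT474-Var1 and fell in BT474-Var4 cells. It read 1.51 and 1.50 in Control, 1.88 and 1.97 in BT474-Var1 and 1.15 and 1.16 in BT474-Var4 cells. The groups stood apart, and arrays of a group lay close together. The differences were 0.42 ± 0.06 (adjusted p = 0.00909) and -0.35 ± 0.06 (adjusted p = 0.0188), and -0.77 ± 0.06 between the variants (adjusted p = 0.00217), of which the last passed under every alternative. The BT474-Var1 call was lost without Control A or Control B (adjusted p up to 0.0545), and the BT474-Var4 call without either of these, BT474-Var4 A or BT474-Var4 B (up to 0.0942). HLA-DRB5, another DR beta chain, gave 0.76 ± 0.09 and -0.49 ± 0.09 and also passed in both (adjusted p = 0.00759 and 0.0273). The remaining tested DR beta chains did not pass against Control, with 0.10 ± 0.09 and -0.13 ± 0.09 for HLA-DRB3 (adjusted p = 0.47 and 0.376) and 0.52 ± 0.19 and -0.50 ± 0.19 for HLA-DRB4 (adjusted p = 0.0973 and 0.123). Whether the probes of the DR beta chains bind each other's RNA was not tested, so their values may not belong to 1 gene each. HLA-DRA, the one alpha chain that all DR beta chains need, was well above background on 0 of 6 arrays.

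HLA-DMA, the alpha chain of the HLA-DM peptide editor, rose in BT474-Var1 cells by both probes. Probe A_23_P42306 read -2.11 and -2.03 in Control, -1.56 and -1.45 in BT474-Var1 and -2.27 and -2.30 in BT474-Var4 cells. Probe A_24_P50245 read -2.47 and -2.71, -1.35 and -1.97, and -2.73 and -2.80. BT474-Var1 was highest by both, with its arrays well apart in the second. The rises were 0.57 ± 0.07 (adjusted p = 0.00697) and 0.93 ± 0.22 (adjusted p = 0.0369), against -0.21 ± 0.07 and -0.17 ± 0.22 in BT474-Var4 cells, which did not pass. Between the variants the differences were -0.78 ± 0.07 (adjusted p = 0.0028) and -1.10 ± 0.22 (adjusted p = 0.0206). The rise by A_24_P50245 was lost without any array but BT474-Var1 B (adjusted p up to 0.147), its difference between the variants without BT474-Var4 A or BT474-Var4 B (up to 0.0865). Both were also lost by the methods' analysis of variance, and the rise under quantile normalization and when only the groups compared were fitted. With normexp background correction the rises were 0.22 and 0.32 and the differences between the variants -0.30 and -0.39. HLA-DMB, the partner chain of HLA-DMA, was well above background on 0 of 6 arrays.

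CIITA, the coactivator that class II genes depend on, went the other way in BT474-Var1 cells. It read -3.42 and -3.09 in Control, -4.07 and -4.33 in BT474-Var1 and -3.71 and -3.09 in BT474-Var4 cells. Neither BT474-Var1 array had it well above background, so that only a bound holds there, and the other 4 arrays did. The probe entered the test through Control and BT474-Var4 cells, where it read higher. By the bound it was 1.71-fold lower in BT474-Var1 cells than in Control, with no allowance for the spread between arrays. The fitted difference was -0.94 ± 0.25 (adjusted p = 0.0476, limma). That call was lost without Control A, Control B, BT474-Var1 A or BT474-Var1 B (adjusted p up to 0.177) by the methods' analysis of variance, and under normexp background correction, where it was -0.08. The difference in BT474-Var4 cells was -0.15 ± 0.25 (adjusted p = 0.705), and a further CIITA probe was dim on all arrays.

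IFI30, a thiol reductase that opens disulfide bonds of antigens in the endosome, fell in BT474-Var1 cells. It read 5.49 and 5.52 in Control, 5.08 and 5.15 in BT474-Var1 and 5.72 and 5.60 in BT474-Var4 cells. The groups did not overlap. BT474-Var1 cells differed from Control by -0.39 ± 0.07 (adjusted p = 0.0155, limma) and BT474-Var4 cells by 0.15 ± 0.07 (adjusted p = 0.173), and BT474-Var4 exceeded BT474-Var1 by 0.54 ± 0.07 (adjusted p = 0.0061) under every alternative. The BT474-Var1 call was lost without Control A, Control B, BT474-Var1 A or BT474-Var1 B, with an adjusted p up to 0.0794, and quantile normalization gave -0.25.

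**Figure D4:**
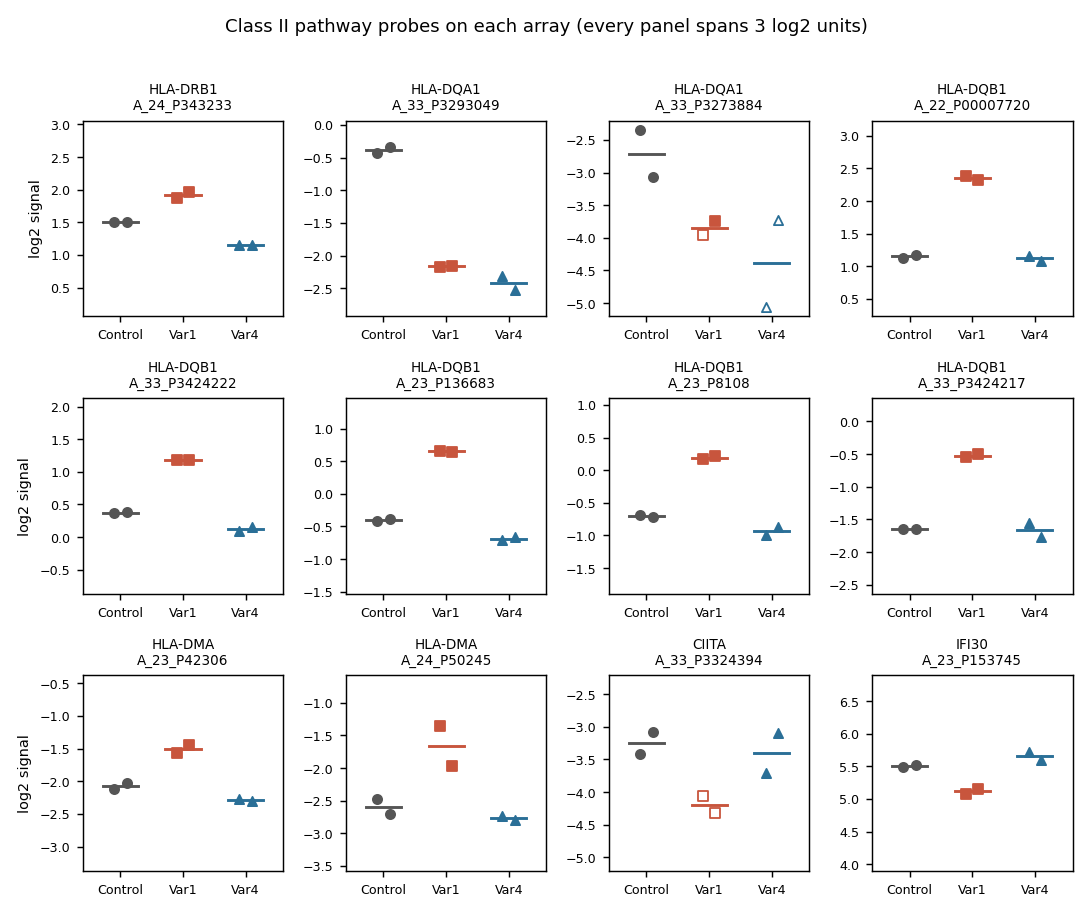
Log2 signal of 12 class II pathway probes on each array, by group, with the group mean as a line and open symbols where the probe was not well above background on that array; every panel spans the same range of log2 units. HLA-DQA1 lies far lower on the variant arrays than on the Control arrays, and the HLA-DQB1, HLA-DRB1 and HLA-DMA probes are highest on the BT474-Var1 arrays.

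Several defining class II members gave no measurable signal. HLA-DRA, HLA-DMB, the invariant chain CD74 and the endosomal protease CTSS, which trims the invariant chain, were well above background on 0 of 6 arrays by the single probe each has. The DP chains were dim, and HLA-DPA1, with both probes tested, and HLA-DPB1, with 2 of 5 tested, passed in no comparison, nor did HLA-DOA, a modulator of HLA-DM. The untested HLA-DOA probe A_32_P356316 read -1.22 on BT474-Var1 A alone, where it was well above background, and -3.96 or lower on the other arrays.

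Other genes of the pathway were read from lists. Of 16 probes of 13 interferon receptor, JAK, STAT and IRF genes, 2 were higher and 3 lower in BT474-Var1 and 5 higher and 1 lower in BT474-Var4 cells. IRF1, an activator of the class I pathway, rose in both, 2.21-fold (1.14 ± 0.13, adjusted p = 0.0069) and 2.04-fold (1.03 ± 0.13, adjusted p = 0.0125). It read -2.45 and -2.47 in Control, -1.49 and -1.14 in BT474-Var1 and -1.37 and -1.49 in BT474-Var4 cells, so all variant arrays lay above Control. IRF9, a transcription factor of the type I interferon response, rose in BT474-Var4 cells by A_23_P65442 (1.03 ± 0.06, adjusted p = 0.00332; 0.18 ± 0.06 in BT474-Var1 cells) and did not pass by its other probe. JAK2, a kinase of the interferon gamma receptor, was lower in BT474-Var4 cells when set against BT474-Var1, by -1.03 ± 0.21 (adjusted p = 0.022).

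Of 16 probes of 8 factors that bind MHC promoters, such as the RFX and NF-Y subunits, 3 were higher and 6 lower in BT474-Var1 and 1 higher and 2 lower in BT474-Var4 cells, and 0 by 2-fold. Of 10 probes of endoplasmic reticulum chaperones and translocon subunits, 1 was higher and 4 lower in BT474-Var1 and 2 higher and 0 lower in BT474-Var4 cells. Of 14 probes of endosomal proteases and class II handling genes, 1 was higher and 5 lower in BT474-Var1 cells, and 4 were higher and 0 lower in BT474-Var4 cells. Of 9 probes of class I like molecules and NK ligands, 1 was higher and 5 lower in BT474-Var1 cells, and 4 were higher and 0 lower in BT474-Var4 cells. Of 12 probes of other HLA genes and pseudogenes, 3 were higher and 2 lower, and 0 higher and 3 lower. The shares of all tested probes are those given above for each comparison.

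Without the filter on dim probes, when all 58201 probes entered the fit, fewer member probes passed. For BT474-Var1 cells 7 passed, those of HLA-DQA1, HLA-DQB1 and PSMB9. For BT474-Var4 cells 1 passed, that of HLA-DQA1, and between the variants 8 did, those of HLA-DQB1, HLA-DRB1 and IFI30 and HLA-DMA probe A_23_P42306. The remaining calls on member probes were lost in that fit.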

How the data were processed

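RNA of Control, BT474-Var1 and BT474-Var4 cells, 2 arrays each, was hybridized to one-color Agilent arrays. The deposited files hold spot intensities that the authors obtained with Feature Extraction 11.5.1.1, in which the background is already subtracted, and a table of log2 values that the authors shifted to each array's 75th percentile. The processed intensities were used here: log2, less the 75th percentile of non-control probes, outlier spots (63 to 128 of 60901 per array) left out and spots of a probe averaged. The deposited table held the same quantity (median absolute difference at most 0.00716). Tested probes were those that the software called well above background on each of the 2 arrays in 1 group or more (31857 of 58201). Group means over all 6 arrays were fitted with limma 3.58.1 (R 4.3.3), with two-sided moderated tests and Benjamini-Hochberg adjustment over the tested probes; an adjusted p under 0.05 passed. With 2 arrays per group and 3 residual degrees of freedom, the number of arrays limits the precision. For a bound, the dim group is set on each array to the lowest signal among probes well above background, or to the probe's own signal where that is higher. Such a bound allows for no spread between arrays and holds only under this background correction.

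All member genes were named, with values per array where a probe passed in any comparison or was the brightest of a central molecule; genes of the interferon and MHC promoter lists were named where they passed with 2-fold or more, and PSMA4, PSMB5 to PSMB7, HLA-DQA2, HLA-DQB2, HLA-DRB3 to HLA-DRB5, the luminal and leukocyte markers with values and the untested HLA-DOA probe after their values were seen. The members and lists were chosen with earlier results of these data known. Replicate letters do not pair arrays: deviations from group means correlated at -0.02 to 0.05. The alternatives tried were quantile normalization, normexp background correction (offset 50), the deposited table, testing every probe, testing only probes well above background on all 6 arrays, the replicate block, eBayes with trend and robust estimation, the methods' one-way analysis of variance, only the groups compared, 1 probe per gene and leaving out each array. The code was tested on simulated data of the same design. Sequences are from the deposited files and from RefSeq (GRCh38.p14).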

Additional observations from a re-analysis of the deposited data

Results flagged for a closer look

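For 15 member probes the change from Control differed between the 2 variants by the test of BT474-Var4 against BT474-Var1 (limma, adjusted p under 0.05), which equals the test of the difference between the 2 changes because both share Control. The values are BT474-Var4 minus BT474-Var1 in log2 units. In class I they were -0.30 for HLA-E probe A_33_P7431456, 0.26 for HLA-E probe A_32_P460973 and 0.19 for B2M. In peptide loading they were 0.23 for TAP1, 0.38 for TAP2 and -0.69 for ERAP2. In class II they were -0.77 for HLA-DRB1, 0.54 for IFI30, and -0.78 and -1.10 for the HLA-DMA probes. The 5 HLA-DQB1 probes gave -1.23, -1.06, -1.34, -1.13 and -1.14.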

How the results depend on the processing

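No member probe reversed its direction where it passed. Of the calls made with all arrays, 7 of 18 in BT474-Var1 cells, 1 of 9 in BT474-Var4 cells and 8 of 15 between the variants passed under every alternative. For BT474-Var1 against Control the count of 18 moved to 7 without the filter on dim probes and to between 10 and 15 when 1 array was left out. For BT474-Var4 against Control the count of 9 moved to 14 with normexp background correction, 1 without the filter, 5 with the replicate block, 14 with trend and robust estimation, and to between 2 and 6 when 1 array was left out. For BT474-Var4 against BT474-Var1 the count of 15 moved to 9 with 1 probe per gene, 25 with normexp, 8 without the filter, 23 with trend and robust estimation, and to between 9 and 13 when 1 array was left out. Other alternatives stayed within 1.5 times. The replicate letter as a block, which is no pairing by the labels, gave 15, 5 and 14 calls. Leaving out an array leaves 1 array in its group, whose spread is taken from the others. Over all tested probes, the passing share fell from 34.4%, 24.2% and 41.2% to 4.59%, 1.24% and 8.78% without the filter; the cause of these shifts was not tested. Dim signal limits CIITA, HLA-DOA, the DP chains and the second HLA-DQA1 probe.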
